A study of Mus musculus with 4 samples.

Results

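The 44 DNA replication and mitosis genes described here were listed by name and function, with earlier results of these data known, out of 21631 protein-coding mouse genes of the RefSeq annotation. They comprise 28 genes that load or run the replication machinery and 16 genes of chromosome structure, the cyclin and CDK system and mitosis. All 44 were found in the annotation, 33 had a start or an end inside a loop anchor of at least 1 library, and 11 had none in any library.

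The loops came from Hi-C, which reads pairs of DNA stretches ligated because they were neighbours in the nucleus, on whole uterus of C57BL/6J females. The mice were over 10 weeks old, had been ovariectomised and rested for 10 to 14 days, and gave tissue 1 h after an injection. Wild-type vehicle was represented by 2 libraries (replicates 2 and 3), wild-type progesterone by 1 (replicate 2) and the ERα knockout (Ex3aERKO) with vehicle by 1 (replicate 1). Vehicle was 100 ul of saline into the peritoneum, and progesterone was 1 mg injected subcutaneously with 100 ul of sesame oil as carrier, so hormone, carrier and route cannot be told apart. All 4 libraries came from mice without ovaries, and no estradiol library was analysed here. The labels do not say whether animals were pooled. With 1 library each for progesterone and the knockout, no test of either comparison was possible, and every difference below describes these libraries.

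Before a cell copies its DNA, the origin recognition complex, Cdc6 and Cdt1 load the ring-shaped MCM helicase onto origins. Cdc45 and the GINS complex turn the helicase on, and the clamp PCNA, its loader RFC, primase and polymerase epsilon then build the new strands. E2F factors switch on many of these genes as a cell enters S phase, while cyclin B, Cdk1, Aurora kinases, Plk1 and the spindle checkpoint genes serve division later. In the uterus, estrogen acting through ERα drives the epithelium through this programme, and the genes are among those that rise late after the hormone. Many have promoters rich in CpG pairs.

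Each loop is a pair of anchors, windows of 5, 10 or 25 kb, that a caller listed as being in contact more than expected. A gene counted as at an anchor if either of its ends fell within that window. List lengths were 16387 loops (vehicle replicate 2), 9385 (vehicle replicate 3), 11752 (progesterone) and 21829 (knockout), with 58.7%, 42.1%, 49.6% and 64.8% of loops at 5 kb. The lists hold no contact counts, so sequencing depth is unknown for all 4, and a loop that is not listed was not called, which is not the same as absent. In whole tissue, fewer cells with a loop and a weaker loop in each cell cannot be told apart. Loop lists hold no expression, so the tissue label could not be checked by marker levels and the knockout could not be checked by the level of Esr1. Of 16 epithelial marker genes, 2, 3, 1 and 4 had an end at an anchor in vehicle replicate 2, vehicle replicate 3, progesterone and the knockout. These were 12.5%, 18.75%, 6.25% and 25%, beside 34.3%, 23.9%, 27.8% and 43.6% of all protein-coding genes.

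Replication and mitosis genes lay at loop anchors about as often as gene density alone gave in the wild-type libraries, within counting error, and more often in the knockout. In vehicle replicate 2, 20 of the 44 had an end at an anchor (45.5%, exact binomial 95% interval 30.4 to 61.2%), beside 34.3% of all protein-coding genes. In vehicle replicate 3 there were 11 (25%, 13.2 to 40.3%), beside 23.9%, and after progesterone 13 (29.5%, 16.8 to 45.2%), beside 27.8%. In the knockout there were 31 (70.5%, 54.8 to 83.2%), beside 43.6%. These intervals cover counting error only, since neighbouring genes share loops. The share of genes at anchors varied with how many genes lie nearby, from 40.01% in the sparsest class to 26.8% in the most crowded in vehicle replicate 2 and from 47.3% to 37.8% in the knockout. An expected count was therefore summed from the share of all genes at anchors in each member's density class. That gave 15.1, 10.2, 12.0 and 19.2 members, and the observed counts were 1.33, 1.08, 1.08 and 1.62 times as many. The interval of the knockout count lay above its expected count, and the intervals of the 3 wild-type counts held theirs. The knockout list was also the longest and had the largest share of 5 kb loops, and the part of list length and resolution in the knockout count was not tested. With promoter CpG content also classed, an alternative chosen after seeing the data, the knockout ratio was 1.20 and its interval held the expected count. It also did with 5 kb anchors alone, where 19 members stood against 13.6 expected (1.39 times, beside 1.34 in vehicle replicate 2).

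**Figure D1:**
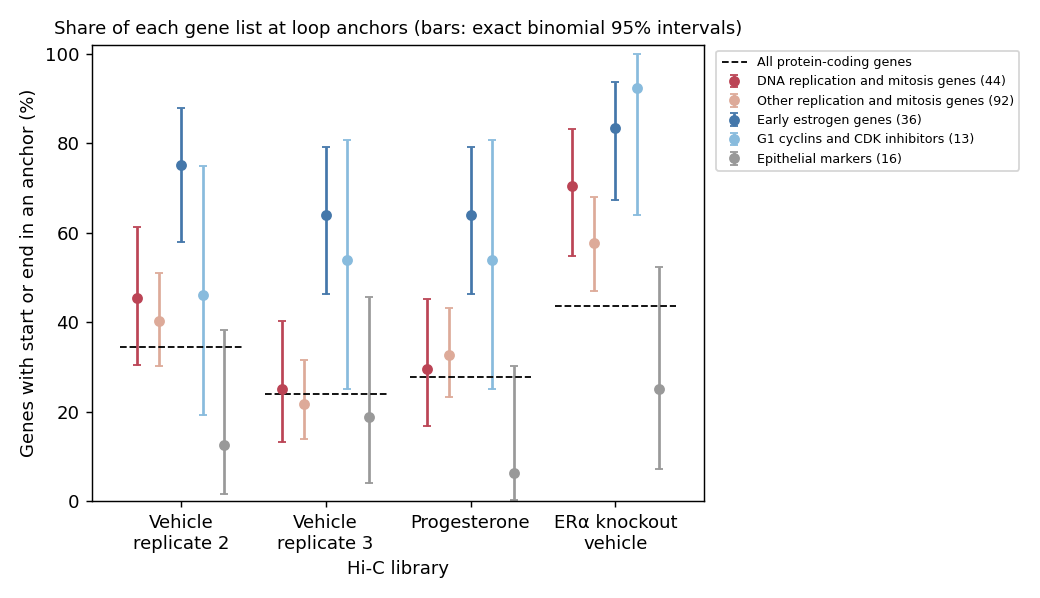
Percent of genes (vertical axis) with a start or end in a loop anchor in each of the 4 libraries (horizontal axis). Points are the 44 genes and 4 other gene lists, bars are exact binomial 95% intervals, and dashed lines are all protein-coding genes. The 44 genes reached 70.5% in the knockout and between 25% and 45.5% in the wild-type libraries.

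Counts differed between the genes of DNA replication and those of division. This pooling of the 7 functional groups was chosen after their values were seen, so it is a description. Of the 28 replication genes, 16, 10, 12 and 24 were at anchors in vehicle replicate 2, vehicle replicate 3, progesterone and the knockout (57.1%, 35.7%, 42.9% and 85.7%), where gene density gave 9.82, 6.63, 7.84 and 12.5. Of the 16 genes of chromosome structure, cyclins and mitosis, 4, 1, 1 and 7 were (25%, 6.25%, 6.25% and 43.8%), where gene density gave 5.23, 3.58, 4.18 and 6.71. The replication genes thus stood above the expected count in each of the 4 libraries, and the division genes stood close to it in the knockout and below it in the wild-type libraries. When promoter CpG was also classed, the replication genes fell to 0.922 times expected in vehicle replicate 3 and 0.998 after progesterone. Over the alternatives the division genes of the knockout ran from 0.744 to 1.33 times expected, and those of progesterone reached 0.633 with 10 kb anchors alone. In a wider list of 92 other cell-cycle genes, 18, 11, 17 and 24 of 42 replication genes were at anchors, 1.28, 1.13, 1.5 and 1.33 times expected. Of its 40 mitosis genes, 17, 8, 11 and 25 were, 1.21, 0.826, 0.969 and 1.40 times expected.

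Motifs in the promoters also differed in number between these sets. RefSeq promoters on GRCm38.p6, from 250 bases before to 50 after the start, matched 35 of the 44 members. Letters bound by E2F (TTTCCCGC, TTTGGCGC, TTTCGCGC or TTTGCCGC on either strand) were in 12 of the 35 (34.3%) and in 575 of 17274 genes with a promoter of that length (3.33%). They were in 10 of 22 replication genes and 2 of 13 division genes. A gene with several promoters counted if any of them held a match. The CHR element (TTTGAA on either strand), known from genes of the G2 and mitosis programme, was in 3 of 22 and 7 of 13, beside 18.0% of all genes with a promoter. CCAAT, on either strand, was in 26 of the 35 (74.3%), beside 42.7%. A match is a description of letters, not a bound site. Shown are Mcm5 and Cdc6, at anchors in all 4 libraries, Mcm6, at an anchor only in the knockout list, and Top2a and Plk1, at none. Each runs 5′ to 3′ on the gene's strand, with matches to any of the 3 motifs in capitals, and E2F letters on opposite strands overlap where the capitals run longer than 8 bases.
Mcm5 at chr8:75109259-75109558, plus strand: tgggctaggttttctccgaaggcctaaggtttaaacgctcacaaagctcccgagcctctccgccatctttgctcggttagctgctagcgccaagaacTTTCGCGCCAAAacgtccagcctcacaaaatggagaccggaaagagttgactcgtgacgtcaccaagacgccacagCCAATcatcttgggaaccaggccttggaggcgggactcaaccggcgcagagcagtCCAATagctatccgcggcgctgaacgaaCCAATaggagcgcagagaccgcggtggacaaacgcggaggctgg
Cdc6 at chr11:98907901-98908200, plus strand: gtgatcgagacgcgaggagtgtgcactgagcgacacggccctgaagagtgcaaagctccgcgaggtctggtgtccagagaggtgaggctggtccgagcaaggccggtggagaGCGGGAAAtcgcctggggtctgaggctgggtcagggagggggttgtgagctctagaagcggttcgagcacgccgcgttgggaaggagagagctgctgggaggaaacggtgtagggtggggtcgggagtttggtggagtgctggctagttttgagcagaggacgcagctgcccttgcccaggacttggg
Mcm6 at chr1:128359656-128359955, minus strand: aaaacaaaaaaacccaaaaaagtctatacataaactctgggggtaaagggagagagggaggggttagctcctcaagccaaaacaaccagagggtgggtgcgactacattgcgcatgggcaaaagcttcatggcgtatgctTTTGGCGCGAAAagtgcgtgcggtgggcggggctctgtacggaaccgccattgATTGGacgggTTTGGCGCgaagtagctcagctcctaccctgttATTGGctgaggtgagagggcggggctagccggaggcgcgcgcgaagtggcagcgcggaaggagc
Top2a at chr11:99024140-99024439, minus strand: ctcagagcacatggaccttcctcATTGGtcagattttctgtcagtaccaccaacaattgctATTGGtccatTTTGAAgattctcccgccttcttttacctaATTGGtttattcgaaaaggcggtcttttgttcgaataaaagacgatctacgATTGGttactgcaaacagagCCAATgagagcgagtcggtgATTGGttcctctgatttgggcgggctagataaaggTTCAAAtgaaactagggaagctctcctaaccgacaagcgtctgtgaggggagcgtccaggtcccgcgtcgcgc
Plk1 at chr7:122159185-122159484, plus strand: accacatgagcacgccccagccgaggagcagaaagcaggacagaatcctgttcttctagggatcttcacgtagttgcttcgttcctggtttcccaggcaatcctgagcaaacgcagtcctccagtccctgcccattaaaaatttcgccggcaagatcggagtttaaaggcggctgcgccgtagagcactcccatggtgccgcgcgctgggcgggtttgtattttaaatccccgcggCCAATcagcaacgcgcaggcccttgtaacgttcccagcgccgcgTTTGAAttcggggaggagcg
Mcm5 held E2F letters 2 times and CCAAT 3 times, Mcm6 held them 3 and 2 times, and Cdc6 held E2F letters once and no CCAAT. Top2a, the topoisomerase that untangles sister chromosomes, held CHR letters 2 times and CCAAT 6 times, and Plk1, a kinase of mitotic entry, held each once. Neither had E2F letters in this window.

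CpG content moved with the anchor counts. The ratio of observed CpG pairs to those a promoter's C and G content would give had a median of 0.940 in the 35 members and 0.617 in all 17274 genes. For a gene with several promoters the highest ratio was used. Over all genes in 5 classes of this ratio, the share at knockout anchors ran from 11.9% in the lowest class to 65.5% in the highest, and in vehicle replicate 2 from 10.5% to 49.2%. The highest class held 20 of the 35 members. With classes of density and CpG together, the expected counts for the 35 members were 16.04, 10.4, 12.7 and 21.6 in vehicle replicate 2, vehicle replicate 3, progesterone and the knockout. The observed 15, 7, 9 and 26 were then 0.935, 0.673, 0.709 and 1.20 times the expected. The knockout share of 74.3% (56.7 to 87.5%) stood beside an expected 61.7%. With density alone the same 35 genes gave 1.26, 0.868, 0.937 and 1.70. The 22 replication genes stood at 1.19, 0.922, 0.998 and 1.48 times expected with both classes, and the 13 division genes at 0.506, 0.257, 0.214 and 0.744.

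**Figure D2:**
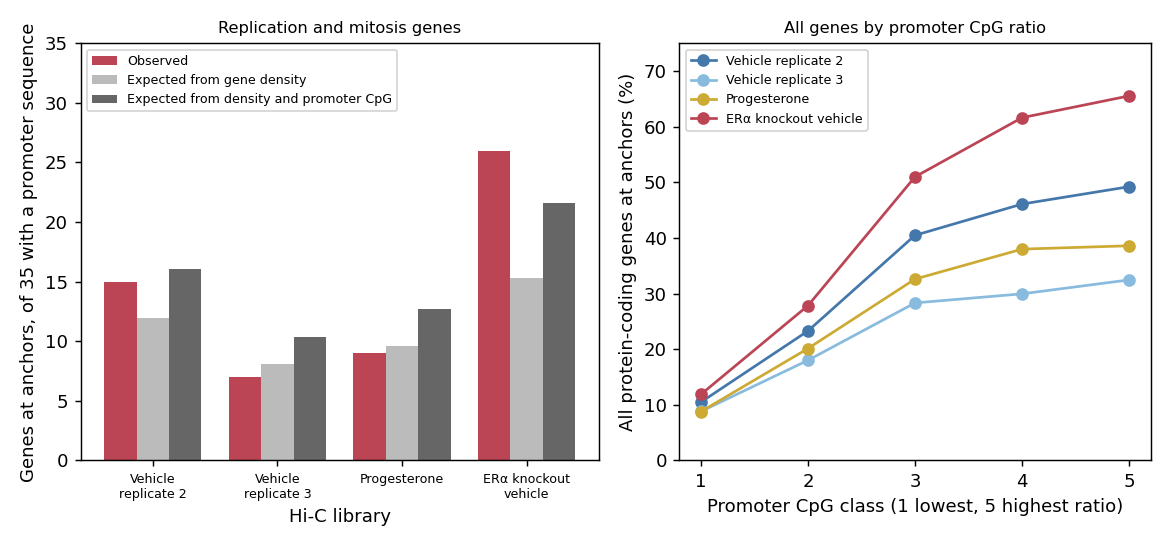
Left, number of the 35 genes with a promoter sequence at anchors in each of the 4 libraries, observed and as the count from gene density or from gene density and promoter CpG ratio. Right, percent of all genes at anchors in each of 5 CpG classes. In the knockout 26 were observed, 15.3 were expected by density and 21.6 by density and CpG.

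Licensing genes prepare origins before replication starts. Of the 8, 3 were at anchors in each wild-type library and all 8 in the knockout, where gene density gave 2.74, 1.86, 2.19 and 3.47, so the wild-type counts were near the background. Cdc6, which recruits the helicase loader, had 4, 2, 2 and 3 loops in vehicle replicate 2, vehicle replicate 3, progesterone and the knockout, and was the only licensing gene in all 4. Its 50 kb loop joined chr11:98920001-98925000 to chr11:98970001-98975000 at Rara, the retinoic acid receptor alpha gene, in the 3 wild-type lists. It was matched by a nearby loop in the knockout list, and its first window held the 3′ end of Cdc6, not the start site. A second loop, of 200 to 225 kb, reached chr11:99120001-99130000 in vehicle replicate 2 and progesterone, and was called at shifted bins in the other 2 libraries. Loops of Cdc6 to Wipf2 (45 kb) and to Igfbp4, an IGF binding protein gene (120 kb), were listed in vehicle replicate 2 and the knockout. Both anchors of the 45 kb loop held an end of Wipf2, so it cannot be given to Cdc6 alone. For Cdt1, the MCM loading factor, 1 loop of 45 kb to Galns and Trappc2l was in the same 2 lists.

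The 6 subunits of the origin recognition complex differed among themselves. Orc1, the subunit that rises and falls with the cycle, had 0, 0, 1 and 2 loops. The progesterone loop ran 275 kb from chr4:108600001-108625000 to Coa7, and those of the knockout ran 725 kb to Lrp8, Magoh and Czib and 45 kb between chr4:108575001-108580000 and chr4:108620001-108625000. Orc3 had 0, 0, 3 and 2. Its 60 kb loop from chr4:34610001-34620000 to chr4:34550001-34560000, at Akirin2, was in both the progesterone and knockout lists. Orc6 had 1, 1, 0 and 1. The 90 kb loop of vehicle replicate 2, from chr8:85305001-85310000 to chr8:85395001-85400000, was matched in all 4 lists, but in the others no Orc6 end lay inside its anchors. Loops of 200 kb in vehicle replicate 3, to Dhps, Wdr83, Wdr83os and Man2b1, and of 250 kb in the knockout, to Gpt2 and Dnaja2, were each in 1 list. Orc4 had 0, 1, 0 and 1. Its annotated start sites lie inside the gene's ends, and a start site lay in an anchor in each wild-type library but not in the knockout. Anchors of 3, 3, 2 and 2 loops overlapped some part of Orc4. Orc2 and Orc5 had 1 loop each, in the knockout only.

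Among the 7 MCM genes, 5, 2, 2 and 7 were at anchors in vehicle replicate 2, vehicle replicate 3, progesterone and the knockout. Gene density gave 2.52, 1.73, 2.03 and 3.19, so the counts in vehicle replicate 3 and progesterone were at the background. Mcm5 had 1, 1, 1 and 3 loops. In every library the same 5 kb windows, chr8:75070001-75075000 at Tom1 and chr8:75105001-75110000 at the Mcm5 start, formed a 35 kb loop. The knockout list added loops of 75 and 115 kb from the same Mcm5 window, both to anchors with an end of Hmgxb4. Mcm4 had 2, 1, 1 and 2 loops. Its anchor, shared with the DNA repair kinase gene Prkdc, lay in a 930 kb loop from chr16:15630001-15640000 to chr16:14700001-14710000 at Snai2, which was listed in 3 libraries at these windows and in vehicle replicate 3 at 25 kb windows and 925 kb.

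The other helicase genes were listed less widely. Mcm7 had 1, 0, 0 and 2 loops, 380 kb from chr5:138160001-138170000 to chr5:137780001-137790000 at Ppp1r35, Mepce and Zcwpw1 in vehicle replicate 2 and 385 kb to Mepce and Zcwpw1 in the knockout, which also held one of 670 kb to Pop7. Mcm2 and Mcm10, which stabilises the activated helicase, each had 1 loop in vehicle replicate 2 and 1 in the knockout. Mcm3 and Mcm6 had 1 loop each, in the knockout only.

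Cdc45 and the 4 GINS genes, which activate the helicase, were at anchors in 3, 2, 3 and 3 of 5 cases, beside 1.84, 1.21, 1.45 and 2.32 from gene density. Gins1 had 1, 0, 2 and 5 loops, the largest total in the knockout of the 44 members. Its knockout loops, from chr2:150900001-150910000 or the window inside it, reached Apmap at 300 kb, Acss1 at 240 kb, Entpd6 at 160 kb, Ninl at 100 kb and Nanp at 130 kb. The 10 kb window also held an end of Abhd12, so those loops cannot be given to 1 of the genes, while the 5 kb window of the 240 kb loop held no other gene end. Gins4 had 2, 1, 1 and 1 loops, and all 4 libraries held a loop of 40 to 60 kb from near chr8:23235001-23240000 into Gpat4. Cdc45 had 1, 0, 1 and 2, with a loop of 60 or 65 kb from chr16:18810001-18815000 to Mrpl40 and Hira in vehicle replicate 2, progesterone and the knockout. Gins2 had 1 loop, in vehicle replicate 3, and Gins3 had none.

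Of the 8 synthesis genes, 5, 3, 4 and 6 were at anchors, beside 2.73, 1.83, 2.17 and 3.48 from gene density. Pcna, the sliding clamp, had 2, 3, 3 and 3 loops. A 110 kb loop between chr2:132130001-132140000, inside Slc23a2, and chr2:132240001-132250000 was in all 4 libraries, as was one of 420 or 425 kb on the same side. On that side the Pcna end in the anchor was its 3′ end, not its start site, and the anchor also held an end of Tmem230. A 425 kb loop in the other direction to Shld1, at chr2:132675001-132700000, was in vehicle replicate 3 and progesterone. The clamp loader genes also held shared loops. Rfc2 had 2, 1, 1 and 1, with a loop of 85 or 90 kb between chr5:134580001-134585000 and chr5:134490001-134495000, inside Clip2. Rfc5 had 1, 1, 1 and 2, with a 275 kb loop between chr5:117375001-117400000 and chr5:117100001-117125000 at Suds3 and Taok3. Rfc1 had 1, 0, 1 and 1, the same 55 kb loop from chr5:65335001-65340000 to chr5:65390001-65395000 at Rpl9 and Lias. Rfc4 had 1, 0, 0 and 3, with a 250 kb loop from chr16:23125001-23130000 to Dnajb11 that was listed for Rfc4 in vehicle replicate 2 and the knockout and matched in the other 2 lists. The knockout list added loops of 850 kb to Tra2b and 1300 kb to Map3k13. Their anchor held the 3′ end of Rfc4, not its start site, and an end of Eif4a2. Prim1, the primase catalytic subunit, had 1, in the knockout only, and Rfc3 and Pole, the catalytic subunit of polymerase epsilon, had none.

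Genes of chromosome structure and of the cyclin and CDK system were the least often at anchors. Top2a and Mki67, the gene of the Ki-67 proliferation antigen, had no loop in any library. Of the 8 cyclin, CDK and E2F genes, 2, 0, 0 and 4 were at anchors, beside 2.69, 1.87, 2.17 and 3.41 from gene density. Ccna2, cyclin A2 of S phase and G2, had 2, 0, 0 and 2 loops, with 40 kb between chr3:36570001-36575000 and chr3:36610001-36615000, at Bbs7, in vehicle replicate 2 and the knockout. Both anchors of that 40 kb loop held an end of Bbs7, so it cannot be given to Ccna2 alone. The other Ccna2 loop in vehicle replicate 2 ran 850 kb to Fgf2, Nudt6 and Spata5. Cdk1, the mitotic kinase, had 1 loop of 875 kb from chr10:69325001-69350000 into Cabcoco1, in vehicle replicate 2. It was matched in vehicle replicate 3 and progesterone and in no knockout loop, the one member loop of vehicle replicate 2 with that pattern. Ccnb1, Cdk2 and E2f1 had 1 loop each, in the knockout only, and Ccnb2, Ccne1 and Ccne2 had none.

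Of the 6 mitotic control genes, 2, 1, 1 and 3 were at anchors, near the 1.85, 1.23, 1.45 and 2.45 from gene density. Mad2l1, a spindle checkpoint gene, had 3, 1, 3 and 4 loops, the only member of the 16 division genes in all 4 libraries. A 625 kb loop from chr6:66525001-66550000 to chr6:67150001-67175000 was in all 4, and one of 1020 or 1025 kb in the other direction was in vehicle replicate 2, progesterone and the knockout. The knockout list added loops to Gng12 at 360 kb and Serbp1 at 730 kb. Aurka, the Aurora A kinase, had 1, 0, 0 and 2, with 70 kb between chr2:172370001-172375000 and chr2:172440001-172445000 at Rtf2 in vehicle replicate 2 and the knockout. Bub1, a checkpoint kinase, had 1, in the knockout only. Aurkb, Plk1 and Cdc20 had none.

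**Figure D3:**
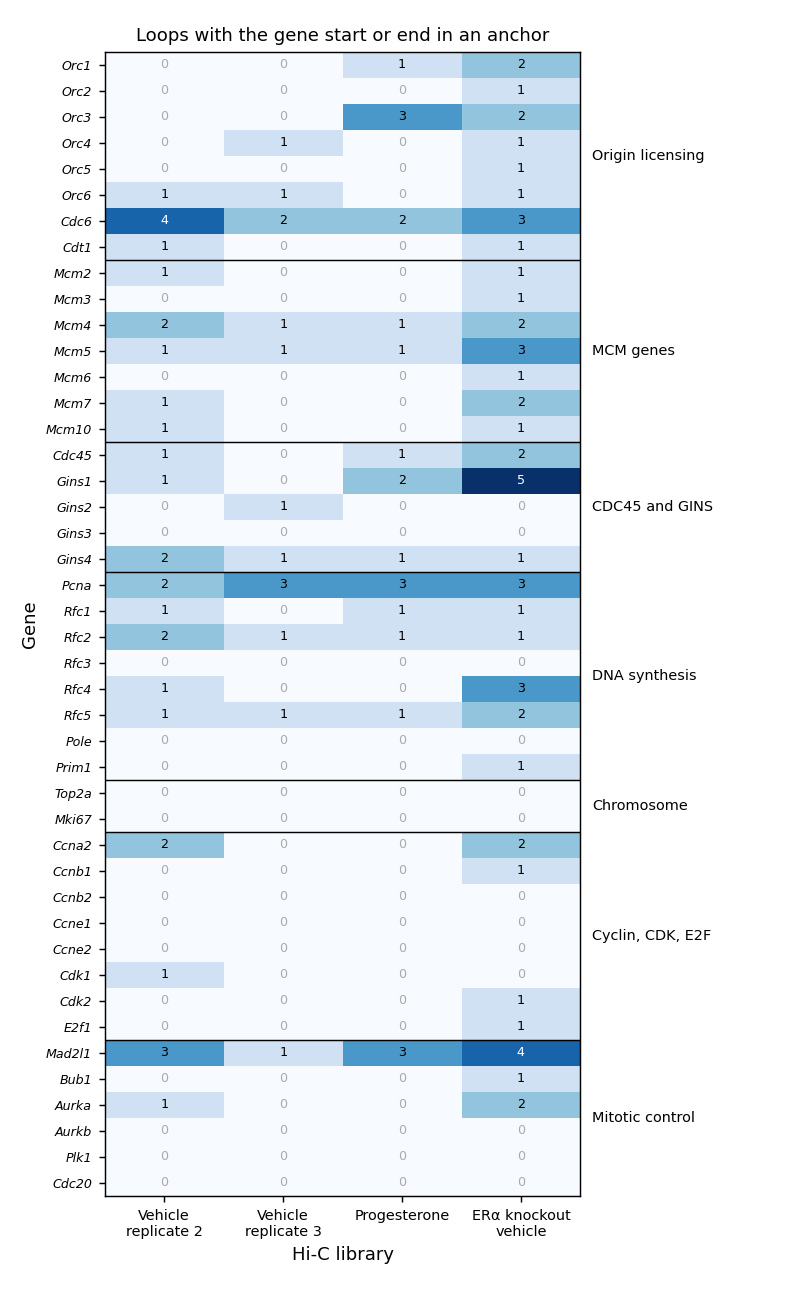
Number of listed loops with an anchor at each of the 44 genes (rows, by function) in the 4 libraries (columns). Gins1 reached 5 in the knockout and Cdc6 reached 4 in vehicle replicate 2, and 11 genes had 0 in all 4.

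Across the members, 8 (18.2%) were at anchors in all 4 libraries, beside 14.0% of all genes, and 9 (20.5%) in the knockout and no wild-type library, beside 10.0%. The 11 at no anchor (25%) compare with 46.4% of all genes. The 8 were Cdc6, Mcm4, Mcm5, Gins4, Pcna, Rfc2, Rfc5 and Mad2l1. Both vehicle libraries shared 9 members at anchors, and 11 were at anchors in the knockout and in neither vehicle library. Those counts hang on which vehicle library is used. With vehicle replicate 2 alone, 20 were at vehicle anchors and 12 were at knockout anchors but not at vehicle anchors. With vehicle replicate 3 alone, these were 11 and 21. Progesterone anchors were left aside in these counts.

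The 9 members found only in the knockout list each had 1 loop, and all 9 loops had another gene end at the far anchor. Lengths ran from 35 to 1230 kb with a median of 60 kb, and in 6 of the 9 the start site itself lay in the anchor. For Ccnb1, Cdk2 and Prim1 only the other gene end did. Their anchors also held an end of Cenph, of Rab5b and Pmel, and of Naca, so those loops cannot be given to 1 of the genes. Ccnb1, cyclin B1, was joined to Mrps36 at 35 kb and E2f1, the S-phase activator, to Zfp341 at 45 kb. Cdk2 was joined to Dgka and Pym1 at 50 kb and Orc2 to Ppil3 and Nif3l1 at 60 kb. Longer loops joined Mcm6 to Ubxn4 at 110 kb, Mcm3 to Tmem14a at 350 kb, Prim1 to Nemp1 at 360 kb and Orc5 to Pus7 and Rint1 at 1230 kb. Some of these genes missed a wild-type anchor narrowly. The nearest wild-type anchor lay 0.296 kb from Mcm6, 0.338 kb from Orc5 and 5.21 kb from Prim1, but 54.7 kb from Mcm3, 54.9 kb from Orc2 and 88.5 kb from Ccnb1.

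Distance to the nearest anchor gave the same order of libraries. Its median over the 44 members was 3.84, 14.6, 7.53 and 0 kb in vehicle replicate 2, vehicle replicate 3, progesterone and the knockout, beside 7.29, 18.2, 13.2 and 2.28 kb for all genes. Within 10 kb of an anchor lay 28, 15, 24 and 37 members, and the matching shares of all genes were 53.8%, 41.3%, 46.0% and 62.2%. Counting any overlap of gene body and anchor gave 21, 12, 15 and 31 members, beside 44.6%, 33.5%, 37.7% and 52.9% of all genes. The 11 genes with no anchor were not all far from loops. Ccne2, cyclin E2, lay 0.222 kb from a progesterone anchor and Top2a between 5.80 and 12.9 kb from anchors, while Rfc3 lay 272.8 kb away in all 4. No anchor touched the body of any of the 11, and 8, 5, 6 and 7 of them lay inside at least 1 loop.

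**Figure D4:**
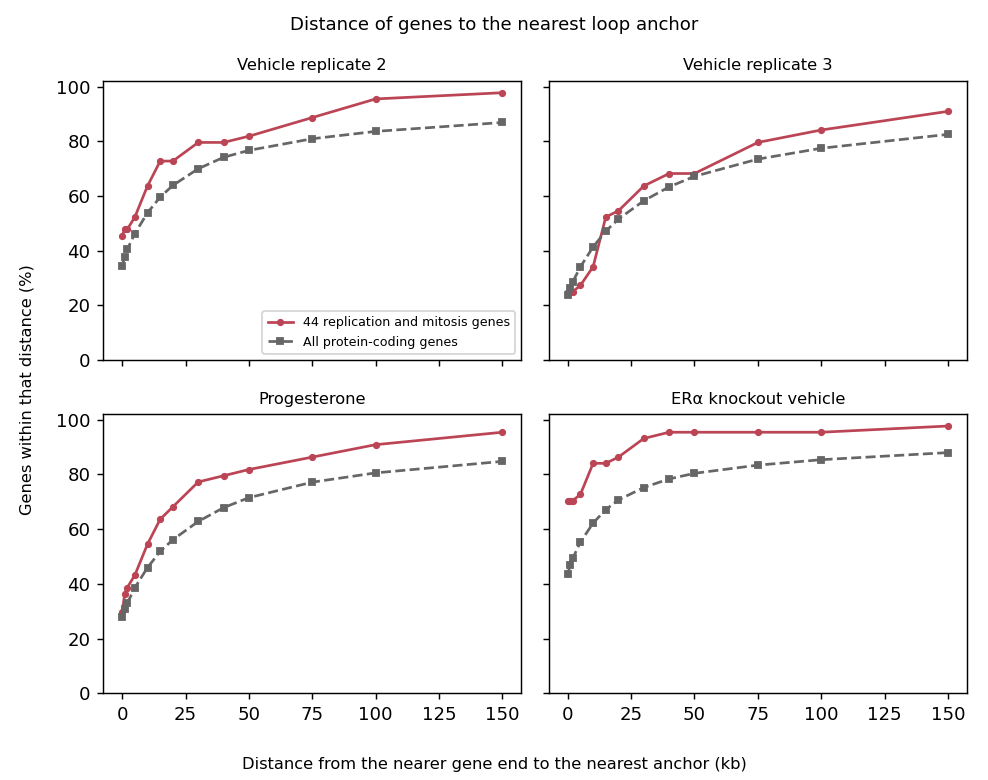
Cumulative percent of genes (vertical axis) within a given distance in kb (horizontal axis) of the nearest loop anchor, for the 44 members and all protein-coding genes in each of the 4 libraries. The members' median was 0 kb in the knockout and 14.6 kb in vehicle replicate 3.

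The members' loops numbered 30, 14, 21 and 54, or 0.183% (0.124 to 0.261%), 0.149% (0.0816 to 0.250%), 0.179% (0.111 to 0.273%) and 0.247% (0.186 to 0.323%) of each list, and these intervals overlapped. Median lengths were 160, 250, 240 and 117.5 kb, beside 160, 175, 170 and 140 kb for loops with any gene end at an anchor. No loop joined 2 of the 44 genes. In 15 of 30, 9 of 14, 13 of 21 and 32 of 54 gene and loop pairs, the member's own anchor also held another gene's end. Those loops cannot be given to the member alone. Among them were loops given above for Orc1, Orc3, Orc6, Mcm7, Cdc45, Rfc5 and Aurka. In 60.0% (40.6 to 77.3%), 64.3% (35.1 to 87.2%), 52.4% (29.8 to 74.3%) and 77.8% (64.4 to 87.96%) of gene and loop pairs, another gene had an end at the far anchor. For all genes these shares were 46.2%, 45.0%, 46.5% and 55.8%, and with each class of gene density weighted as in the members, 53.3%, 47.5%, 51.5% and 62.2%. The knockout interval lay above the density-weighted share, and the intervals of the wild-type libraries held it. These intervals cover counting error only. Pairs of the same gene often share an anchor, as those of Gins1 did, so they are not independent. Promoter CpG and anchor width were not classed for this share. Of the members' loops, 46.7%, 21.4%, 23.8% and 42.6% had 5 kb anchors. For loops with any gene end at an anchor these were 54.4%, 33.6%, 43.4% and 62.4%. The part of anchor width in the share of far anchors with a gene was not tested.

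Most wild-type loops of the members were listed again in another library. Of 14 in vehicle replicate 3, 11 were in vehicle replicate 2 (78.6%, beside 83.5% of all gene loops), and of 30 in vehicle replicate 2, vehicle replicate 3 held 13 and the knockout 23. Of 21 after progesterone, vehicle replicate 2 held 16 and the knockout 17. Of the 54 in the knockout, 29 were in no wild-type list (53.7%, 39.6 to 67.4%, beside 41.1% of all gene loops), and these lay at 23 genes. Against the vehicle lists alone, 32 of 54 were in neither (59.3%, 45.0 to 72.4%, beside 45.0%), a share that was 79.6% against vehicle replicate 3 alone. The converse was rare. Of 13 member loops in both vehicle lists, 1 was not in the knockout list (7.69%, beside 10.9% of all gene loops), and without either vehicle library that share was 21.4% or 23.3%.

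**Figure D5:**
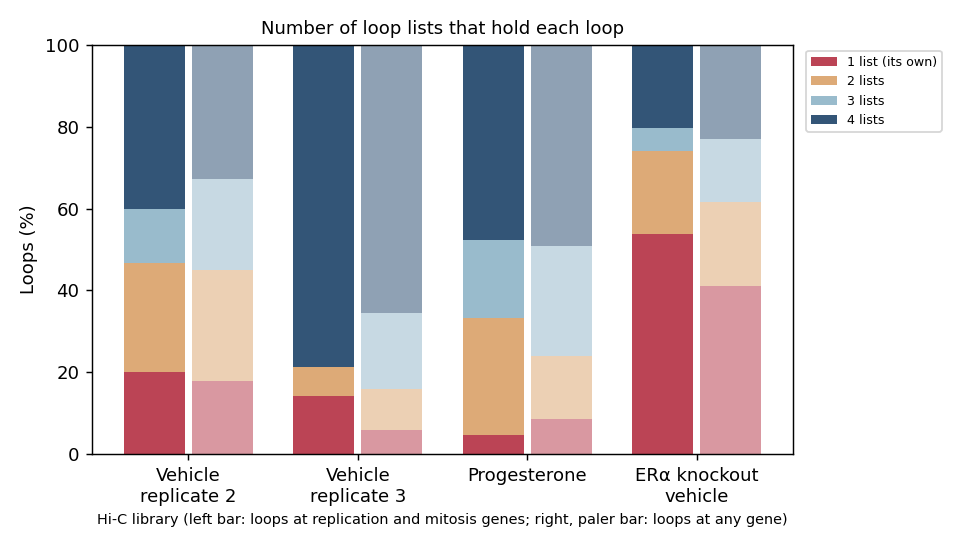
Percent of loops (vertical axis) of each of the 4 libraries (horizontal axis) held by 1 to 4 of the lists, with loops at the 44 genes in the left bars and loops at any gene in the paler right bars. Of the members' knockout loops 53.7% were in that list alone, beside 41.1% of loops at any gene.

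After progesterone, no member loop common to both vehicle lists was missing (0 of 13, which allows a share of up to 24.7%), beside 18.2% of all gene loops. With vehicle replicate 2 or 3 alone, 46.7% or 14.3% were missing. Neither vehicle list held 4 of the 21 progesterone loops (19.0%, 5.45 to 41.9%, beside 16.1%), at Orc1, Orc3 and Gins1, and 47.6% were absent from vehicle replicate 3 alone. Between the vehicle lists, 3 of 16 loops in vehicle replicate 2 and progesterone were not in vehicle replicate 3. Of 12 in vehicle replicate 3 and progesterone, 1, at Pcna, was not in vehicle replicate 2. These are shares of loops already found in 2 lists, so the progesterone share, taken over all loops of 1 list, is not like them. Over all loops of 1 list, vehicle replicate 3 held 13 of the 30 of vehicle replicate 2. Vehicle replicate 2 held 11 of the 14 of vehicle replicate 3.

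Of 92 replication, mitosis and cell-cycle regulator genes outside the 44, 37, 20, 30 and 53 were at anchors (40.2%, 21.7%, 32.6% and 57.6%), where density gave 31.8, 21.9, 25.6 and 40.5. The ratios of 1.16, 0.914, 1.17 and 1.31 stand beside 1.33, 1.08, 1.08 and 1.62 for the members. With promoter CpG added, the 78 with a sequence stood at 0.864, 0.676, 0.971 and 0.968 times expected, and the knockout count was then at its expected level. In all 4 libraries were Mcm9, Pold3, Rpa2, Rpa3, Fen1, Mtbp, Tk1, Bub1b, Cenpe, Nuf2, Birc5, Nek2, Ncapg, Sgo1 and E2f3. E2f3, an E2F activator, had 4, 1, 2 and 5 loops, Nuf2, of the kinetochore, 3, 2, 2 and 4, Sgo1, which guards centromere cohesion, 3, 1, 2 and 4, and Cdc25a, a CDK phosphatase, 2, 0, 2 and 5. Bub3 had 1, 0, 4 and 3 and Nek2 had 1, 2, 3 and 2.

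Fbxo5, which restrains the anaphase-promoting complex, had 0, 0, 0 and 8 loops. They ran 525 to 23550 kb, all with 25 kb anchors. Fbxo5 lies at chr10:5799158-5805465, near Esr1, the gene altered in the knockout, and a local effect of the altered allele and loss of ERα elsewhere cannot be told apart. Lists of other function set a scale. Of 36 early estrogen response genes, 27, 23, 23 and 30 were at anchors, beside 13.2, 9.43, 10.9 and 16.3 from gene density. Among them Myc had 12, 4, 9 and 16 loops and Jun had 11, 5, 8 and 10. Of 13 genes of G1 cyclins and CDK inhibitors, 6, 7, 7 and 12 were at anchors, beside 4.66, 3.24, 3.79 and 5.85 from gene density.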

How the data were processed

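Per the labels' protocols, whole mouse uterus was profiled by Arima Hi-C. For each of 4 libraries the authors deposited a list of loops with 6 columns of positions and no scores. Positions are in bases on mm10, and Juicer 1.5.6 was used, per the submitters' processing notes. Which caller made the loops, at what thresholds and depth, was not given in the sources used here.

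Gene positions were those of RefSeq on GRCm38.p6 (the mm10 assembly), 21631 protein-coding genes without strand. Expected counts were sums, over members, of the share of all genes at anchors in the member's class, of 5 classes by how many genes lie within 100 kb. Density-matched random draws were not used. Loops matched if another list held one overlapping each anchor widened by 10 kb per side. Intervals are exact Clopper-Pearson at 95% and reflect counting error alone.

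Groups followed the labels. The members, the comparison lists (92 other replication and mitosis genes, 36 early estrogen genes, 13 G1 cyclins and CDK inhibitors, 16 epithelial markers) and the tests were chosen with earlier results of these data known. By rule, all 44 members were named. The partner of 1 member loop is not reported here. Loop positions were given for members at anchors in all 4 libraries and up to 10 more with the most loops. The printed promoters were chosen after values were seen. The matching of loops and the placing of genes at anchors were tested on simulated loops, and the counts per list were not. Alternatives covered the anchor width, the rule for a gene at an anchor, the background and each vehicle library left out. Scripts ran under Python 3.11.15, scipy 1.17.1, pandas 2.3.3, numpy 2.4.6 and matplotlib 3.10.9.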

Additional observations from a re-analysis of the deposited data

How the results depend on the processing

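Across 38 results and 188 alternative values, 139 moved by less than the counting interval or 1.5 times and 49 moved further. The knockout ratio stayed above 1 in each alternative, and its interval held the expected count with 5 kb anchors only (1.39) and with promoter CpG classes (1.20). With only 10 kb anchors, members at anchors were 7, 3, 7 and 16 (vehicle replicate 2, vehicle replicate 3, progesterone, knockout), the knockout ratio was 2.30, member loops were 8, 3, 8 and 22, and the median length in vehicle replicate 2 was 340 kb. The shares in neither vehicle list were then 81.8% (knockout) and 62.5% (progesterone), and of loops in both vehicle lists 0% were missing from the knockout. With only 5 kb anchors, members were 12, 3, 5 and 19, loops 14, 3, 5 and 23, median lengths 57.5 kb in vehicle replicate 2, 50 kb after progesterone and 55 kb in the knockout, and distances 30.8 kb in vehicle replicate 3, 25.1 kb after progesterone and 1.95 kb in the knockout. With a gene end within 10 kb of the anchor, 24 members were at progesterone anchors and loops were 50, 25, 39 and 83. With the gene start alone, 12, 7, 8 and 21 of 35 were at anchors, beside 28.0%, 17.6%, 21.9% and 38.5% of all genes, where either end gave 15, 7, 9 and 26 of the same 35. With density classes over all annotated genes, not only protein-coding ones, the ratio was 1.81 in vehicle replicate 2 and 2.26 in the knockout. With classes of density and promoter CpG, added after seeing the data, it was 1.20 in the knockout, and 0.935, 0.673 and 0.709 in the wild-type libraries. For those 35 genes density alone already gave 0.868 in vehicle replicate 3 and 0.937 after progesterone. The ratio was also below 1 in vehicle replicate 3 with gene ends within 10 kb (0.832), any overlap (0.861), 5 kb anchors (0.837) and 10 kb anchors (0.727), and after progesterone with any overlap (0.942) and 5 kb anchors (0.868). Leaving out either vehicle library gave 11 to 20 members at vehicle anchors and 12 to 21 at knockout but not vehicle anchors. The remaining vehicle list lacked 59.3 to 79.6% of knockout loops and 23.8 to 47.6% of progesterone loops. Loops missing were 21.4 to 23.3% in the knockout and 14.3 to 46.7% after progesterone. Fewer loops enter each of these lists by construction where the anchor width is restricted, and otherwise the cause was not tested. A stricter calling threshold was not run, since the lists hold no score. No paired analysis was possible because vehicle and progesterone share only replicate number 2 and no result comes from a test.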
